A study of Mus musculus with 2 samples.

Results

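The core of the Notch pathway, 10 genes, was followed in ribosome footprints from mouse ileum: the target repressor Hes1, the receptors Notch1, Notch2, Notch3 and Notch4, the ligands Dll1, Dll4 and Jag1, the DNA-binding factor Rbpj and the secretory-lineage factor Atoh1. Their rows were found by gene symbol, the set itself having been drawn up with earlier results of these data known, and all 10 were among the 22756 gene rows of the files. Footprints are the mRNA pieces that ribosomes protect from nuclease, so a gene's count reflects both its mRNA and the ribosomes on it. All tissue was ileum, taken on postnatal day 21 from wild-type animals of the C57BL/6 strain. A single library came from fed animals and another from animals fasted 48 h before collection. How many animals stand behind each library was not given in the sources used here.

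Notch signalling passes between touching cells. A ligand of the Delta-like or Jagged type on one cell binds a receptor on the next, the receptor is cut by ADAM proteases and then by gamma-secretase, and its freed intracellular part joins Rbpj and Mastermind proteins to switch on targets such as Hes1. In the intestinal crypt, Hes1 represses Atoh1. Cells with active Notch become absorptive enterocytes or stay progenitors, and cells that keep Atoh1 become goblet, Paneth, enteroendocrine or other secretory cells, which themselves display Delta-like ligands.

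The fed library held 5558620 gene-assigned footprints and the fasted library 5434252. With 1 library per condition there was no test between conditions and no replicate check, so each difference is between these libraries and each interval covers counting error only. Counts were scaled with TMM, which sets the typical gene's fasted/fed ratio near 1. Plain CPM, scaling by total count alone, lowered every log2 ratio by 0.32, the median of all genes included. A gene was measured with at least 30 counts over both libraries, and was called higher or lower where the libraries differed at least 1.5-fold and the 95% exact interval excluded 1. Of the 10 genes 9 were measured, and Rbpj was not. In this bulk tissue, fewer cells of a type and fewer footprints per cell cannot be told apart.

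Of the 9 measured genes, 1 (Notch4) was higher in the fasted library, 2 (Atoh1 and Dll4) were lower and 6 were neither. Over all 11333 measured genes 17.3% were higher and 17.3% lower by the same rule. Among the 7193 genes with between 81 and 979 counts, the span of the measured members, these shares were 16.3% and 18.7%. The members' shares of 11.1% higher and 22.2% lower thus lay near the background at this list size. With plain CPM, 8.86% of all genes were higher and 31.2% lower, and the members had 1 higher and 3 lower, Notch3 joining Atoh1 and Dll4.

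**Figure D1:**
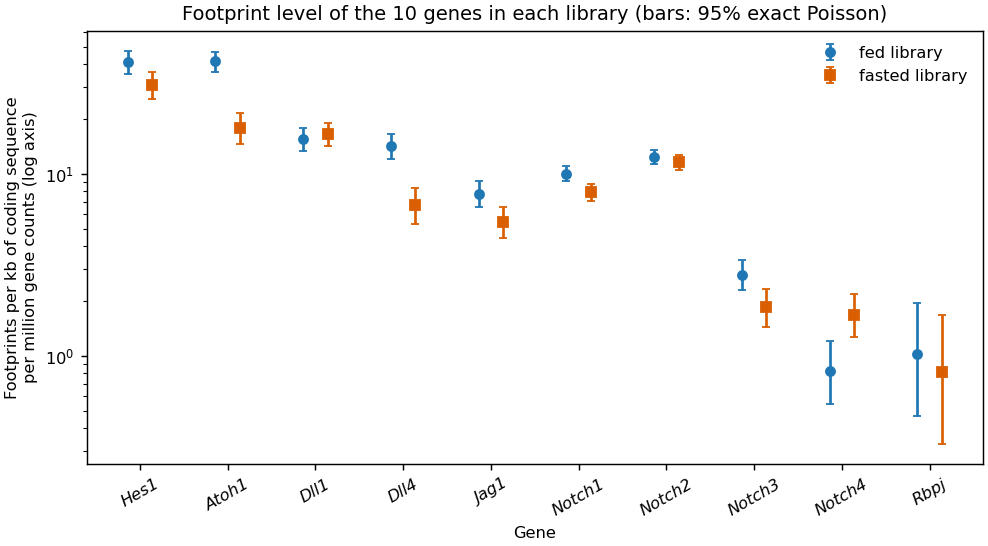
Footprints in CPM per kb of coding sequence (log axis, total-count CPM) of the 10 genes in the fed (circles) and fasted (squares) library, with 95% exact Poisson intervals. Hes1 and Atoh1 stood level at the top in the fed library, at 41.1 and 41.4, and apart in the fasted library, at 30.6 and 17.8.

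Levels were compared between genes per kb of coding sequence and scaled to the total gene count, as footprints per kb in CPM units. Hes1 (ENSMUSG00000022528, chromosome 16, 30064384 to 30067796, plus strand, mm10), with a coding sequence of 849 bases in 4 exons, had 194 counts in fed ileum and 141 in fasted ileum. Its level was 41.1 (95% exact Poisson interval 35.5 to 47.3) in fed ileum and 30.6 (25.7 to 36.0) in fasted ileum. Scaled with TMM, these counts were 31.2 and 29.0 CPM, a log2 ratio, fasted over fed, of -0.10 (-0.43 to 0.22). Bounded by counting error alone, the fasted Hes1 level thus lay between 0.743 and 1.16 times the fed level. With plain CPM the log2 ratio was -0.43 (-0.75 to -0.11), which excluded 1 but stayed under 1.5-fold. Hes1 was near the middle of the data, with 43.3% of measured genes at a lower log2 ratio.

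Atoh1 (ENSMUSG00000073043, chromosome 6, 64729125 to 64731245, plus strand), a basic helix-loop-helix activator whose coding sequence of 1056 bases lies in 1 exon, had 243 counts in fed ileum and 102 in fasted ileum. The fasted library was the lower, at 39.1 TMM-scaled CPM in fed ileum and 21.0 in fasted ileum, 1.86-fold apart (log2 ratio -0.89, -1.25 to -0.56). With plain CPM the log2 ratio was -1.22 (-1.57 to -0.88), and 10.9% of measured genes had a lower ratio than Atoh1 under TMM. Per coding length, Atoh1 and Hes1 could not be ordered in the fed library (ratio 1.01, 0.830 to 1.22), whereas Hes1 was 1.72 times Atoh1 in the fasted library (1.32 to 2.24).

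A ratio of 2 genes taken within a library does not depend on how the libraries are scaled. Atoh1 had 1.25 counts for each Hes1 count in the fed library and 0.723 in the fasted library, a 1.73-fold lower ratio (log2 -0.79, 95% exact conditional interval -1.27 to -0.32). Hes1 had 0.181 counts for each receptor count in fed ileum and 0.154 in fasted ileum (log2 -0.24, -0.59 to 0.11), too wide an interval at this depth to show a difference. Of the 36 pairs among the 9 measured genes, 20 changed at least 1.5-fold with an interval excluding 1, and these intervals were not adjusted for the number of pairs. The share among pairs of all measured genes was not computed, so this count cannot be read as particular to these genes. Pairs that share a gene are also not independent. Notch4 was in 8 of those 20 pairs and Atoh1 in 7. Of the 21 pairs without these genes, 6 remained apart.

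**Figure D2:**
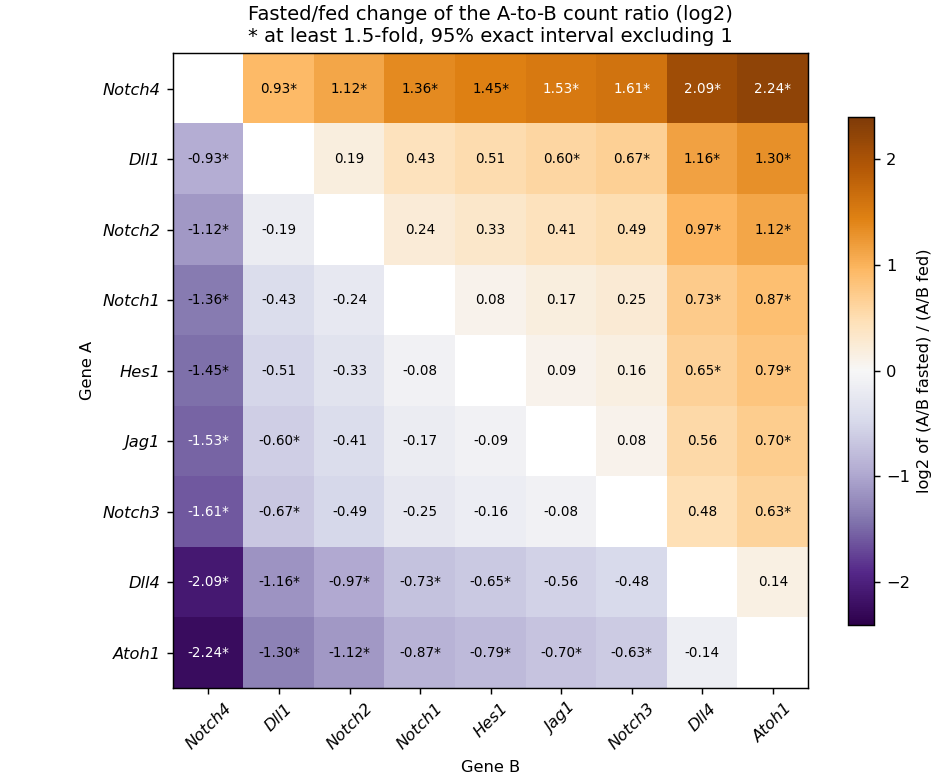
Change of the count ratio of gene A (rows) to gene B (columns) from the fed to the fasted library, on the log2 scale, for the 9 measured genes. Orange is a ratio higher in the fasted library, purple one lower, and asterisks mark the 20 pairs at least 1.5-fold apart with a 95% exact interval excluding 1. The Notch4 row is orange against each other gene, and Atoh1 is lowest, beside Dll4.

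Atoh1 is known as a gene that Hes1 represses, so its promoter is shown, the 250 bases before the RefSeq start (GRCm38.p6, chr6:64728875-64729124, plus strand). Whether Hes1 acted on Atoh1 in this tissue was not tested. Hes family repressors are known to bind class C sites (CACGCG) and N boxes (CACNAG), which were searched on both strands, and matches are in capitals.

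Atoh1: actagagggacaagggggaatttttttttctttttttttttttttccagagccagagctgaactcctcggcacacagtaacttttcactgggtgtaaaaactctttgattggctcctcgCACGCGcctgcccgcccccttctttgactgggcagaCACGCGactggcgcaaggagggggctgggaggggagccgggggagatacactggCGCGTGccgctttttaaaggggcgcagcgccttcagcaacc

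It held 3 matches to the class C letters, which 7.62% of all 32851 RefSeq promoters of that length held at least once, and 0 to the N box, held by 36.7%. Class C letters were not particular to Atoh1 among these genes: promoters of Jag1 held 2 matches, and those of Dll1, Dll4 and Notch2 held 1 each. RefSeq promoters matched 9 of the 10 genes, Hes1 being the one without an entry. TGGGAA, the core of the Rbpj site, was in 21.6% of all promoters and in neither strand of this one. These matches are letters in a window and were not tied to binding or to the footprint counts.

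The ligands went different ways. Dll1 (ENSMUSG00000014773, chromosome 17, 15367354 to 15376872, minus strand), which secretory cells and their progenitors show to neighbours, had 187 counts in fed ileum and 194 in fasted ileum. Its TMM-scaled CPM was 30.1 and 39.9, a log2 ratio of 0.41 (0.11 to 0.71) that stayed under 1.5-fold, and it was 0.09 (-0.21 to 0.38) with plain CPM. Dll4 (ENSMUSG00000027314, chromosome 2, 119325784 to 119335962, plus strand), a ligand of crypt secretory cells and of sprouting endothelium, had 162 and 75 counts. Its scaled level was 26.1 in fed ileum and 15.4 in fasted ileum, 1.69-fold lower (log2 ratio -0.75, -1.17 to -0.35; -1.07 with plain CPM). Jag1 (ENSMUSG00000027276, chromosome 2, 137081456 to 137116644, minus strand), a Jagged ligand, had 158 and 108 counts and a log2 ratio of -0.19 (-0.56 to 0.17).

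Within the summed counts of these ligands, Dll1 took 36.9% (95% exact Clopper-Pearson interval 32.7% to 41.2%) in fed ileum and 51.5% (46.3% to 56.6%) in fasted ileum. Dll4 took 32.0% (27.9% to 36.2%) and 19.9% (16.0% to 24.3%). The Dll1 and Dll4 intervals stood clear between the libraries, and those of Jag1, at 31.2% and 28.6%, overlapped. As parts of 1 sum these shares are not separate results, and the Dll1 counts themselves were 187 and 194. The Dll4 to Dll1 count ratio was 0.866 in fed ileum and 0.387 in fasted ileum, 2.24-fold lower (log2 -1.16, -1.68 to -0.66). Per coding length, Dll1 and Dll4 could not be ordered in the fed library (15.5 and 14.1), and they were 16.5 and 6.70 in the fasted library.

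The receptors kept their order per coding length in both libraries, Notch2 above Notch1, Notch3 and Notch4, though the last pair could not be told apart in the fasted library. Notch1 (ENSMUSG00000026923, chromosome 2, 26457903 to 26516663, minus strand) and Notch2 (ENSMUSG00000027878, chromosome 3, 98013527 to 98150361, plus strand) are the receptors of the intestinal epithelium. Notch1 had 423 counts in fed ileum and 326 in fasted ileum, a log2 ratio of -0.02 (-0.23 to 0.19). Notch2 had 512 and 467 counts, a log2 ratio of 0.22 (0.04 to 0.41) that turned to -0.10 (-0.28 to 0.08) with plain CPM. Notch3 (ENSMUSG00000038146, chromosome 17, 32120820 to 32166852, minus strand), a receptor of vascular smooth muscle and pericytes, had 108 and 70 counts. Its log2 ratio was -0.27 (-0.73 to 0.18), and with plain CPM it was lower (-0.59, -1.05 to -0.15).

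Notch4 (ENSMUSG00000015468, chromosome 17, 34564268 to 34588503, plus strand), a receptor of endothelial cells, had 27 counts in fed ileum and 54 in fasted ileum. Its TMM-scaled CPM was 4.34 and 11.1, a 2.56-fold higher level in the fasted library (log2 ratio 1.34, 0.66 to 2.08). With plain CPM it was 2.05-fold (log2 1.02, 0.34 to 1.76), and 95.8% of measured genes had a lower ratio under TMM. Notch4 took 2.52% (1.67% to 3.65%) of all receptor counts in fed ileum and 5.89% (4.45% to 7.61%) in fasted ileum. Notch4 overlaps a processed pseudogene on the opposite strand, and 7 of the 10 genes overlap some other annotated gene. Hes1, Atoh1 and Jag1 overlap none. The strand setting of the counting is not given, so reads from such overlaps cannot be told apart.

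**Figure D3:**
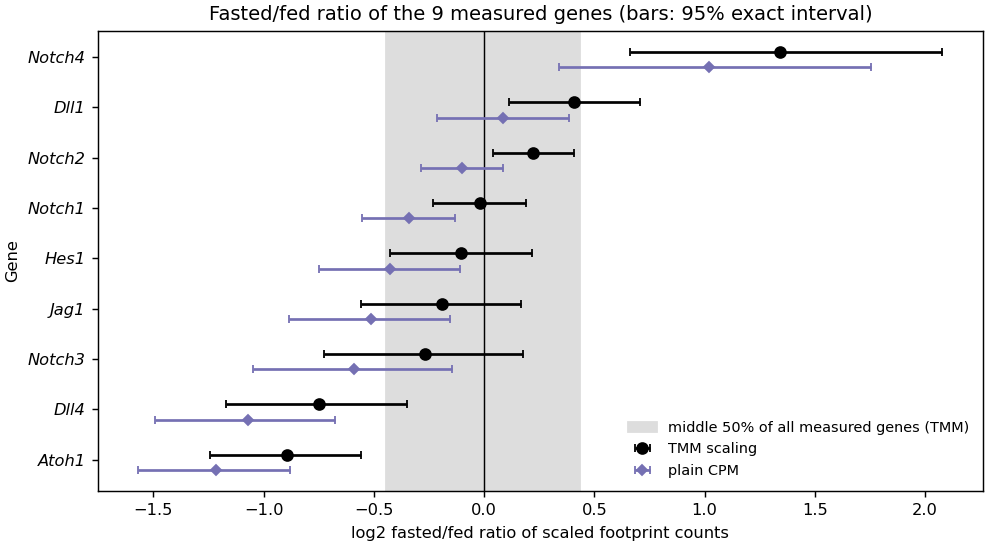
Fasted/fed log2 ratio of the 9 measured genes with 95% exact intervals under TMM (circles) and plain CPM (diamonds). The grey band is the middle 50% of all measured genes under TMM, from -0.44 to 0.44. Atoh1, Dll4 and Notch4 lie outside the band, and Hes1 lies inside it.

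The start codons of these genes are shown because footprints report on ribosomes past initiation, and the bases around the ATG are known to affect how well it is recognised. Each line gives 9 bases before the ATG (capitals) and 1 after it, 5′ to 3′, on the mRNA strand of the GENCODE vM21 transcript with the longest coding sequence.
Hes1: aaaacgaaaATGc
Atoh1: tgcagtgcgATGt
Dll1: agcggtaccATGg
Dll4: ccccaagggATGa
Notch3: ccggccgccATGg
Notch4: cgctctggaATGc

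All 10 genes had a purine at position -3, as did 84.4% of 19318 coding genes. Only Dll1 and Notch3 also had G at position +4 (positions counted with the A of the ATG as +1), the strongest context, which 41.6% of coding genes had. Hes1, Atoh1, Dll4 and Notch4 had the purine without the G. These sequences are the same in both libraries and were not set against the footprint counts.

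Rbpj (ENSMUSG00000039191, chromosome 5, 53466152 to 53657362, plus strand), the factor through which all Notch receptors act on DNA, had only 9 counts in fed ileum and 7 in fasted ileum. Its log2 ratio of 0.01 had an interval from -1.67 to 1.59, so nothing can be said of its direction. The gene counts leave out reads with more than 1 alignment, and much of Rbpj has a copy elsewhere. Its processed pseudogene Rbpj-ps3 (chromosome 6, 46529354 to 46530794, minus strand) aligned to 91.1% of the 1581 coding bases with 99.7% identity. A second pseudogene, Rbpj-ps1 on chromosome 4, aligned to 63.1% with 89.3% identity. The 120 bases with the most differences between Rbpj and Rbpj-ps3 are shown, with differing bases in capitals. They span coding positions 970 to 1089 of Rbpj, and chr6:46529843-46529962 (minus strand) of the pseudogene.
Rbpj: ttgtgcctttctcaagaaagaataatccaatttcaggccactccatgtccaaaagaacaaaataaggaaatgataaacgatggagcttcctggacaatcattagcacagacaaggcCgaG
Rbpj-ps3: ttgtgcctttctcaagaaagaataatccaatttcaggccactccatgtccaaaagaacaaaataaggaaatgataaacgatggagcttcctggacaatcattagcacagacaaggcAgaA

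Even this stretch held only 2 differences, of 4 in the whole alignment. Of all 28-base windows of the Rbpj coding sequence, 13.2% occurred in no other annotated gene, against at least 97.6% for each of the 9 measured genes. Footprint lengths are not given, so 28 bases was a working value. Per kb of coding sequence Rbpj stood at 1.02 in the fed library. With the coding length cut to that 13.2%, 209 bases, Rbpj stood at 7.75 (95% exact Poisson interval 3.54 to 14.7) in fed ileum. In fasted ileum it stood at 6.16 (2.48 to 12.7), and Jag1 stood at 7.77 in fed and 5.43 in fasted ileum. This takes all Rbpj counts to come from unique windows, which was not tested. Of 102 genes in the role lists 10 had under 80% unique windows, and 5 of these had fewer than 30 counts. Among them, and named after their values were seen, were the gamma-secretase subunits Aph1a and Psenen, with 0% unique windows and 0 counts in both libraries, whereas Hdac1, at 10.2%, had 102 and 25 counts. Counts under 30 were not particular to genes with repeated windows. Of the 102 role-list genes 75 were measured, as were 11333 of all 22756 gene rows. The part of repeated sequence in the low counts was not tested.

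Other pathway genes were read by role, in 9 lists of 103 symbols, the 10 genes included, 1 of which (Hes3) was not analysed here. Over all lists, higher genes numbered 9 of 75 measured (12.0%) and lower genes 11 (14.7%), with 55 neither and a median log2 ratio of -0.02, beside 17.3% in each direction and a median of 0.003 over all measured genes. With plain CPM 4 were higher and 24 lower, at a median of -0.34 (all genes -0.32, with 8.86% higher and 31.2% lower).

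Upstream of the receptors, 2 of 10 measured genes of receptor glycosylation and ligand endocytosis were lower and 0 higher. The share of all measured genes was 17.3% in each direction, so lists this short cannot be told from it. They were Pofut1, the O-fucosyltransferase of Notch (168 and 64 counts, log2 ratio -1.03, -1.48 to -0.61), and Mib1, the ubiquitin ligase that lets ligands be internalised (212 and 109 counts, -0.60, -0.95 to -0.26). Among the cleaving proteases, both ADAM genes were lower. Adam10 had 1069 and 441 counts (-0.92, -1.09 to -0.76) and Adam17 233 and 120 (-0.60, -0.93 to -0.28). The gamma-secretase subunit Ncstn was higher, at 1760 and 2344 counts (0.77, 0.68 to 0.86), but not with plain CPM.

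In the nucleus, 2 of 8 measured members of the Rbpj coactivator list were higher and 0 lower, beside 17.3% of all measured genes in each direction. Both encode Mastermind proteins, which bridge the receptor fragment and Rbpj to acetyltransferases. Maml1 had 80 and 120 counts (log2 ratio 0.94, 0.52 to 1.37), and Maml3 had 16 and 25 (log2 ratio 0.98, interval of the ratio itself 1.03 to 4.01), the latter not counted as higher with plain CPM. The acetyltransferase Ep300, with the most counts of the list, had 840 and 665 (0.02, -0.13 to 0.17). Among corepressors, 2 of 12 were lower, the histone deacetylases Hdac1 (102 and 25 counts, -1.65, -2.37 to -1.03) and Hdac2 (319 and 142, -0.81, -1.11 to -0.52), and 0 were higher. Only 10.2% of Hdac1 windows were unique, so its value rests on a small part of the gene. Ncor1, with most counts there, had a log2 ratio of 0.45 (0.32 to 0.59).

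Among 13 measured genes of receptor turnover, 3 were higher and 1 lower under TMM, all of the Deltex ubiquitin ligase family. The share of all measured genes was 17.3% in each direction, so a list this short cannot be told from it. Dtx3 (13 and 36 counts, log2 ratio 1.79, 0.88 to 2.86), Dtx4 (51 and 72, 0.85, 0.32 to 1.40) and Dtx2 (35 and 48, 0.81, 0.15 to 1.48) were higher, and Dtx3l (1158 and 525, -0.79, -0.94 to -0.64) was lower. The other 9 of 13 were neither, including Nedd4, with the most counts of the list (-0.35, -0.44 to -0.26). Also neither was the Deltex gene Dtx1, named after its value was seen (38 and 19 counts, -0.63, -1.52 to 0.19). With plain CPM 1 was higher (Dtx3) and 5 lower (Dtx3l, Nedd4 and, named after their values were seen, Dtx1, Cdk8 and Ccnc). That scaling lowered the ratios of all genes alike, with 8.86% of measured genes higher and 31.2% lower. Numb, which holds Notch back in dividing cells and was chosen after its value was seen, had 643 and 674 counts (0.42, 0.27 to 0.58).

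Downstream, Hes1 had more counts than any other Hes or Hey repressor. Hes6, which is known to oppose Hes1 and was chosen after its value was seen, had 104 and 103 counts (log2 ratio 0.34, -0.07 to 0.75). Per kb of coding sequence, Hes1 stood at 41.1 (35.5 to 47.3) in fed ileum and Hes6 at 27.7 (22.6 to 33.6). In fasted ileum Hes1 stood at 30.6 (25.7 to 36.0) and Hes6 at 28.1 (22.9 to 34.1), with overlapping intervals. Hes2 was lower at 29 and 8 counts (-1.44, -2.84 to -0.34). Hes5, Hes7, Hey1, Hey2 and Heyl each had at most 26 counts in sum and were not measured. Nrarp, a direct Notch target that feeds back on the pathway, had 21 and 6 counts (-1.37, -3.05 to -0.09), just under the minimum, and was chosen after its value was seen.

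Of 14 measured secretory lineage factors 2 were higher and 2 lower (14.3% each), with 10 neither and -0.13 as the median. All measured genes had 17.3% in each direction and a median of 0.003 under TMM. These counts thus cannot be told from the background. With plain CPM 1 was higher and 7 lower, beside 8.86% and 31.2% of all measured genes. Besides Atoh1, Creb3l4, a membrane-bound transcription factor, was lower (164 and 70 counts, -0.87, -1.30 to -0.46). Gfi1 and Spdef, which act after Atoh1 in goblet and Paneth cells and were chosen after their values were seen, had intervals that held 0. Gfi1 had 31 and 13 counts (-0.87, -1.96 to 0.08) and Spdef 84 and 54 (-0.28, -0.80 to 0.23), both counted as lower with plain CPM only. Neurod1, of enteroendocrine cells, was higher (14 and 40 counts, 1.84, 0.96 to 2.86), as was Sox4 under TMM (146 and 183, 0.68, 0.36 to 1.01). Klf4, with most counts in the list, had 0.06 (-0.10 to 0.22), and Sox9, of crypt and Paneth cells and chosen after its value was seen, 0.01 (-0.24 to 0.26).

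**Figure D4:**
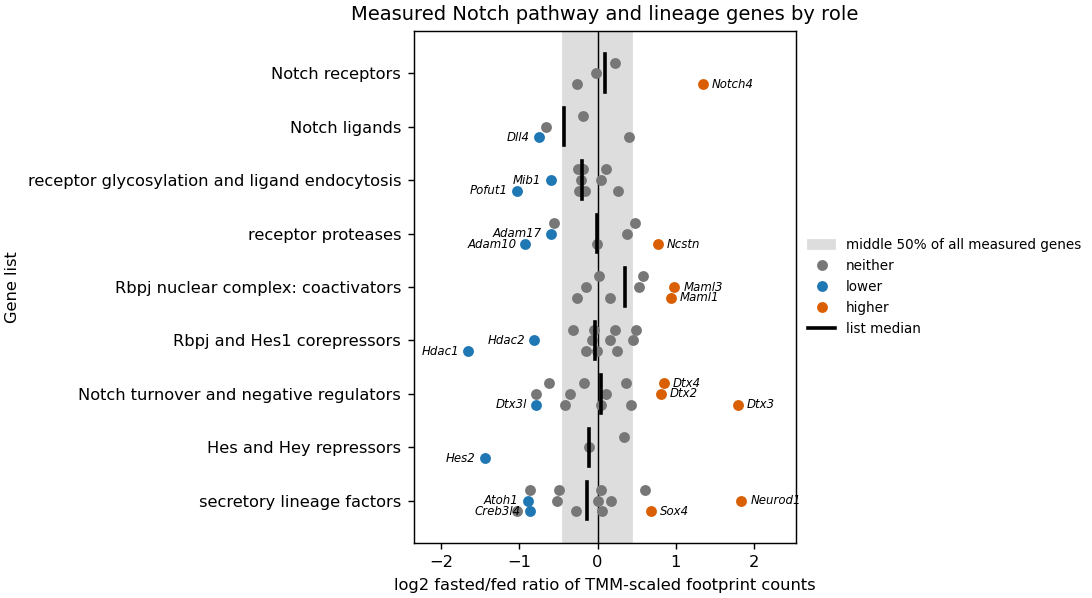
Fasted/fed log2 ratio of each measured gene of the 9 role lists under TMM, coloured by whether it was higher, lower or neither in the fasted library, with list medians (black bars) and the middle 50% of all measured genes (grey). Higher and lower genes are named, and 55 of the 75 genes were neither, some of them outside the grey band.

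Markers of the cells that carry these genes differed between the libraries as well. Over all measured genes 17.3% were higher and 17.3% lower under TMM. With plain CPM 8.86% were higher and 31.2% lower. Endothelial markers, of the cells known for Notch4 and for part of Dll4, had 6 of 13 measured genes higher and 0 lower (median log2 ratio 0.53), summing to 576 TMM-scaled CPM in fed ileum and 864 in fasted ileum. With plain CPM 1 was higher and 0 lower. Smooth muscle and pericyte markers, of the cells known for Notch3, had 6 of 10 lower and 0 higher (median -0.70, summed CPM 5733 and 3438). The pericyte markers of this list, chosen after their values were seen, were neither: Rgs5 had 0.54 (0.42 to 0.67), Pdgfrb 0.40 (0.23 to 0.57) and Cspg4 -0.29 (-0.48 to -0.10), the latter lower with plain CPM. With plain CPM 8 of the 10 were lower.

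Goblet cell markers, of an Atoh1-dependent lineage, had 4 of 7 lower and 0 higher (median -1.26, summed CPM 50800 and 39197). The others, named after their values were seen, were neither. Fcgbp, with the most counts of the list, had 0.15 (0.14 to 0.17), Zg16 0.53 (0.50 to 0.55) and Tff3 -0.08 (-0.13 to -0.03). Of the measured tuft cell markers 5 of 5 were lower (median -1.14, 124 and 58.4). Paneth cell markers, also Atoh1-dependent, had 2 of 6 higher and 0 lower (median 0.22, 12308 and 13196; 0 higher with plain CPM), with Defa17 at 0 counts in both libraries. Enteroendocrine markers had 3 of 7 higher and 0 lower (median 0.57, 391 and 671), and with plain CPM 1 was higher (median 0.25). Crypt stem cell markers had 1 of 8 higher and 3 lower (median -0.43, 1830 and 1040), and proliferating cell markers 1 of 8 higher and 5 lower (median -1.02, 828 and 400). Enterocyte markers, of the Notch-dependent absorptive fate, had 5 of 9 higher and 0 lower (median 0.65, 40602 and 84598), and with plain CPM 4 were higher and 1, Fabp6, lower. The genes of ileal bile acid uptake in that list, chosen after their values were seen, were present in both libraries. Fabp6 had 28873 counts in fed ileum and 16615 in fasted ileum (-0.44, -0.47 to -0.41), and Slc10a2 had 2458 and 2390 (0.31, 0.23 to 0.40). Fibroblast markers had 2 of 7 higher and 5 lower (0 higher with plain CPM) and leukocyte markers 5 of 7 lower and 0 higher. Beside 17.3% of all measured genes in each direction under TMM, the smallest of these counts cannot be told from the background. The part of these markers in the values of Atoh1, Dll4, Notch3 and Notch4 was not tested.

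**Figure D5:**
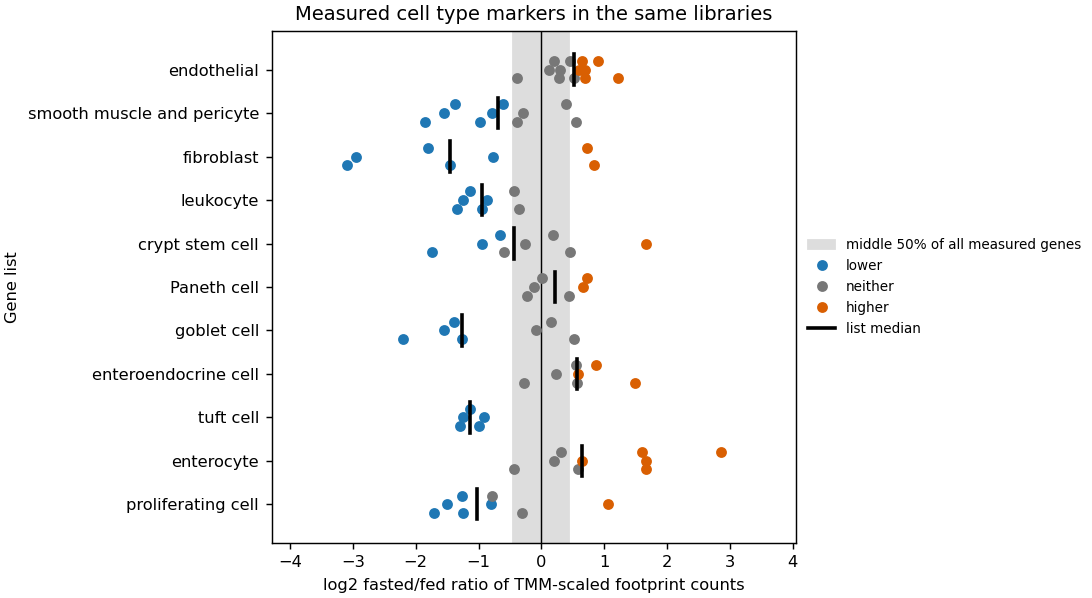
Fasted/fed log2 ratio of measured cell type markers under TMM, 1 point per gene and 1 row per list, with list medians (black bars) and the middle 50% of all measured genes (grey). Endothelial, enteroendocrine and enterocyte medians lie above 0.5, while goblet, tuft, fibroblast and proliferating cell medians lie below -1.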

How the data were processed

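Footprint libraries from fed and fasted mice (1 each) were deposited as raw counts per gene symbol, not normalised, per the file headers. The submitters' processing notes name cutadapt, Bowtie 1.1.2, STAR, HTSeq and mm10, with no role or order. Annotation, strand setting and footprint length filter: not given in the sources used here. NA was read as 0 (7647 fed and 7827 fasted rows), and totals of unassigned reads were left out. Reads aligned to several places, assigned to no gene, made up 41.4% and 39.9% of counted reads.

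Counts were scaled with TMM (edgeR 4.0.16, R 4.3.3), used for scaling only. Ratios carry exact Clopper-Pearson intervals on the split of counts, ratios of ratios exact conditional intervals (scipy 1.17.1), and log2 ratios had 0.5 counts added. Libraries were PCR amplified, so intervals cover counting error only. The floor for a gene at 0, 3 counts, equals 0.540 CPM (fed) or 0.552 CPM (fasted). Coordinates, coding lengths (longest coding transcript) and the search for repeated 28-base windows used GENCODE vM21 (GRCm38, the assembly of mm10), and promoters came from RefSeq (GRCm38.p6). The functions were tested on simulated libraries. Members and lists were chosen with earlier results of these data known. Named genes were all members and, per list, up to 3 per direction by the interval bound nearest 1 and the gene with most counts, and others are marked as chosen after their values were seen. Alternatives were 4 other scalings, minimums of 1 and 200 counts, a 2-fold threshold, 99% intervals or none, 2 added counts and other coding lengths.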

Additional observations from a re-analysis of the deposited data

Results flagged for a closer look

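Reads overlapping no counted feature, which enter none of the values above, made up 21.0% of counted reads in the fasted library and 13.4% in the fed library. This share stood out because it lay above that of the fed library in reads outside the gene counts. The set of features counted was not given in the sources used here.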

How the results depend on the processing

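Under each of the 4 other scalings Notch4 was higher and Atoh1 and Dll4 lower, while Hes1 was neither, with a log2 ratio from -0.43 (plain CPM) to -0.10. Notch4, with 81 counts, dropped out with a minimum of 200 counts, which left 0 members higher. At a 2-fold threshold 0 members were lower, since Atoh1 and Dll4 lay under that fold. Over the role lists, genes higher numbered 9, against 4 with plain CPM, 3 with a minimum of 200 counts and 3 at 2-fold. Genes lower numbered 11, against 24 with plain CPM, 3 at 2-fold and 17 with no interval. Over all genes, 1956 were higher, against 1004 with plain CPM, 1187 with a minimum of 200 counts and 935 at 2-fold, and 1962 lower, against 3536, 892 and 1035 in that order. Adding 2 counts left the Atoh1 to Hes1 ratio at -0.78 and the Dll4 to Dll1 ratio at -1.14. Chosen after seeing the data were the unique-window level of Rbpj and the lists limited to genes with at least 80% unique windows (9 higher, 10 lower). Coding length from RefSeq proteins was not run. No paired analysis was possible because each condition has 1 library. At 9 and 7 counts, depth allows no statement on Rbpj.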

Other observations

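Factors of the enteroendocrine lineage, which branches from Atoh1-positive progenitors, were chosen after their values were seen, and most lay under the 30-count minimum. Neurog3, the factor that starts this lineage and is made only briefly, had 15 counts in fed ileum and 2 in fasted ileum (log2 ratio -2.28, 95% interval -5.72 to -0.45). Later factors of the same lineage lay on the other side. Neurod1 had 14 and 40 counts, Isl1 had 2 and 10 (2.43, 0.45 to 5.91) and Pax6 had 1 and 9 (3.02, 0.67 to 8.98). Insm1 (20 and 24 counts, 0.61, -0.30 to 1.55) and Rfx6 (8 and 13, 1.02, -0.32 to 2.53) had intervals that held 0. These genes were picked from 23 of the secretory list, and no test between conditions exists with 1 library each.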
